A study of Mus musculus with 8 samples.

Results

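Retsat and Rbp4 are a pair of genes of vitamin A handling in the liver. They were chosen by name, with their splicing values already known, as the retinoid genes among those with a large splicing difference after loss of the splicing factor SRSF3. The deposited table of local splicing variations held 3 of its 862 variations under these names, 2 for Retsat and 1 for Rbp4, with 7 of 6866 junctions and introns. The deposited table of junction usage held 1 of its 498 events under these names, for Rbp4.

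The cells were hepatocytes from livers of C57BL/6J mice with floxed Srsf3 alleles, kept in culture and exposed for 48 h to an adeno-associated virus (AAV). In the AAV-Cre group (4 libraries, genotype label Srsf3-KO) the virus carried Cre, the recombinase that deletes the floxed stretch of Srsf3. In the AAV-GFP group (4 libraries, genotype label Srsf3-flox) it expressed green fluorescent protein, so the floxed alleles, the culture and the virus were common to both groups. The sources used here do not give the promoter that drove Cre, the age of the mice or the number of animals.

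The value for each junction or intron is its expected PSI (percent spliced in, written as a share from 0 to 1) among the alternatives of the same variation. The deposited tables give 1 value for each group or comparison. The spread between the 4 libraries of a group and the depth behind each value are therefore unknown, and no SD, interval or test stands beside the values. As a check of the labels, the Srsf3 junction that joins exon 1 with exon 2 went from a PSI of 0.998 (AAV-GFP) to 0.157 (AAV-Cre). Shares within a gene carry no expression level, so the hepatocyte label could not be checked against markers: 0 of 7 hepatocyte and 0 of 7 stellate cell markers had a variation or event, and Cd68 was the only marker of another liver cell type that had one. In such bulk RNA, fewer cells of a type and less RNA per cell cannot be told apart.

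The liver takes up dietary retinoid, holds most of it as retinyl esters in stellate cells, and releases retinol to the blood through hepatocytes. Retsat encodes retinol saturase, an enzyme of the endoplasmic reticulum that reduces a double bond of all-trans-retinol to give dihydroretinol. Rbp4 encodes retinol-binding protein 4, the carrier that hepatocytes secrete with retinol and that travels in plasma bound to transthyretin. SRSF3 is a small SR protein that binds pyrimidine-rich RNA, with CATC (CAUC in RNA) among its described binding sequences.

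The variations of Retsat concern introns 7 and 9 of the transcript Retsat-201, which has 11 exons (chromosome 6, 72598475 to 72608425, plus strand, mm10). The 4 exons that border these introns are shown because the retained introns join them, from the GENCODE vM21 transcript sequence, 5′ to 3′, with each CATC in capitals. Exon 7 lies at chr6:72605972-72606110, exon 8 at chr6:72606385-72606494, exon 9 at chr6:72606573-72606739 and exon 10 at chr6:72606874-72607033.
Retsat exon 7: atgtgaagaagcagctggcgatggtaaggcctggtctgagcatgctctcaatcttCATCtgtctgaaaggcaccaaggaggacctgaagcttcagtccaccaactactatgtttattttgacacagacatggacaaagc
Retsat exon 8: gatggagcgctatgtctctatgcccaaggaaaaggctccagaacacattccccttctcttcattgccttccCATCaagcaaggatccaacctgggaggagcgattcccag
Retsat exon 9: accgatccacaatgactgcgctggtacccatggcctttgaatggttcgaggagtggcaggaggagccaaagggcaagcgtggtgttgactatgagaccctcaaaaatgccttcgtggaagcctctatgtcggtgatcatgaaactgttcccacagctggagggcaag
Retsat exon 10: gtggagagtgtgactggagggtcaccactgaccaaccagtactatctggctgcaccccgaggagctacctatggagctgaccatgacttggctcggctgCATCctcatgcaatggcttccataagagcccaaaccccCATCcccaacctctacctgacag

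Read on the transcript strand only, CATC occurred 1 time in exon 7, 1 time in exon 8, 0 times in exon 9 and 2 times in exon 10. It is a common sequence: among annotated internal coding exons within 10% of the same length, 52.6%, 44.0%, 59.9% and 58.3% held it at least once. Exon 7 ended in C, as did 2.77% of 165262 internal coding exons, whereas 80.0% ended in G. The other 9 Retsat exons that precede an intron, exon 9 among them, all ended in G. The bases of the introns themselves were not analysed here.

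The variation of Rbp4 concerns its first exons (chromosome 19, minus strand, mm10). Exon 2 (38124519 to 38124647) was joined from an upstream first exon (38124955 to 38125321) or from a downstream first exon (38124758 to 38124811), and the downstream first exon was also joined to an inner site of exon 2. The sequences below run from each first exon into exon 2, built from the GENCODE vM21 transcripts Rbp4-201 and Rbp4-202, 5′ to 3′, with start codons in capitals. They show where translation is annotated to begin in each form.
Rbp4 upstream first exon to exon 2, from its start codon: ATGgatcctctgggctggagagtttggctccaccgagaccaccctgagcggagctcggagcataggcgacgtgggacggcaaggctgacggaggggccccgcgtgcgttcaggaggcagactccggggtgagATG
Rbp4 downstream first exon to exon 2: ctcctgctgggcagactccggggtgagATG
Rbp4 downstream first exon to the inner site: cgcggctcctgctgactccggggtgagATG

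The first sequence holds both annotated start codons of Rbp4. Rbp4-201, with the upstream first exon, is annotated to start translation at 38125068 and has 245 codons. Rbp4-202, with the downstream first exon, is annotated to start at 38124629 within exon 2 and has 201 codons. The start codons are in the same frame, so Rbp4-201 adds 44 codons at its 5′ end, of which 38 come from the upstream first exon and 6 from the start of exon 2. The downstream first exon is wholly untranslated in this annotation. The inner site leaves out the first 5 bases of exon 2, ahead of the start codon of Rbp4-202, and joins at 38124642, a position that none of the 4 Rbp4 transcripts of GENCODE vM21 uses.

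**Figure D1:**
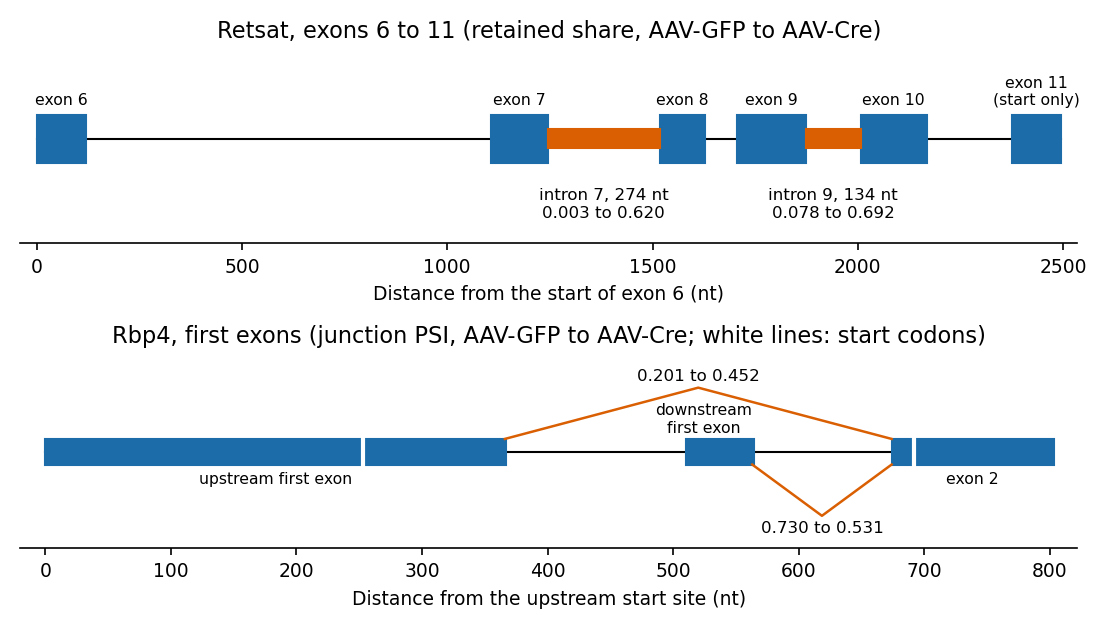
Maps to scale of Retsat from exon 6 (top; distance in nt from the start of exon 6) and of the Rbp4 first exons (bottom; distance in nt from the upstream start site). Blue boxes are exons, orange boxes the retained introns, orange lines the joined first exons, white lines the annotated start codons, and paired values the deposited group PSI in AAV-GFP and AAV-Cre; the junction to the inner site of exon 2 is not drawn.

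Both Retsat introns were mostly removed in AAV-GFP and mostly retained in AAV-Cre. Intron 7 (72606111 to 72606384, 274 nt) had a retained share of 0.003 with AAV-GFP and 0.620 with AAV-Cre, and the junction of exon 7 to exon 8 had 0.997 and 0.380. The change in the authors' deposited table, turned here to AAV-Cre minus AAV-GFP, was 0.617 for this intron. All deposited changes of local variations are given in this turned direction. Intron 7 was thus all but absent from the AAV-GFP group and made up the larger share in the AAV-Cre group.

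Intron 9 (72606740 to 72606873, 134 nt) had a retained share of 0.078 with AAV-GFP and 0.692 with AAV-Cre, and its splice junction had 0.922 and 0.308. Its change was 0.629 in the authors' deposited table. The spliced share was 2.62-fold lower in AAV-Cre at intron 7 and 2.99-fold lower at intron 9. Intron 9 had the higher retained share in both groups, by 0.075 in AAV-GFP and by 0.072 in AAV-Cre, while the deposited changes of the 2 introns differed by 0.0127. Without values per library, it is not known whether these differences between the introns exceed the spread.

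The retained introns lie in the coding part of Retsat, and neither length is a multiple of 3. Intron 7 follows 1253 of 1827 coding bases (68.6%) and interrupts codon 418 after its second base. Intron 9 follows 1530 coding bases (83.7%) and lies between codons 510 and 511 of 609. The lengths of 274 and 134 nt leave remainders of 1 and 2 on division by 3, and their sum, 408 nt, leaves 0. The tables count each intron separately, so how often 1 transcript kept both introns was not measured. None of the 6 Retsat transcripts of GENCODE vM21 holds either intron as exon.

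The 2 introns sit 355 bases apart, on both sides of exons 8 and 9 and of the shortest Retsat intron, intron 8 (78 nt). In Retsat-201, introns 7 to 10 are the shortest of its 10 introns, with 274, 78, 134 and 208 nt, while introns 1 to 6 have 320 to 2176 nt. The variations used here cover introns 7 and 9 only, each seen from the exon downstream of it. Since the table appears to hold variations already picked for a difference, it gives no measurement of the other 8 introns.

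**Figure D2:**
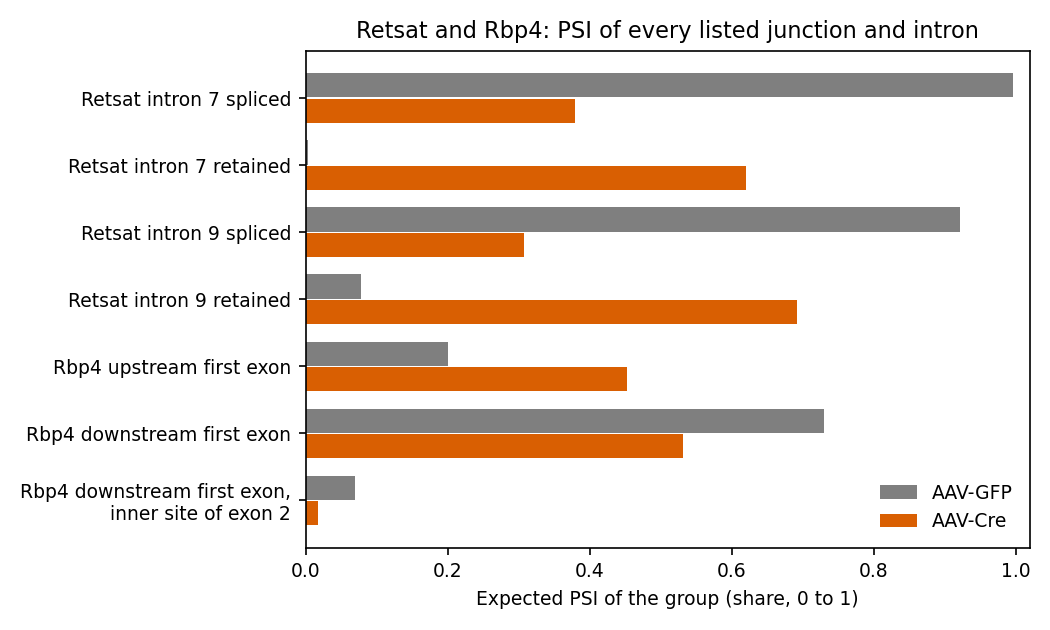
Deposited group PSI (x axis, share from 0 to 1) of every Retsat and Rbp4 junction and intron, with AAV-GFP in grey and AAV-Cre in orange; each bar is 1 value per group, with no error available. Both Retsat introns reach 0.620 and 0.692 in AAV-Cre, and the upstream first exon of Rbp4 goes from 0.201 to 0.452.

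The Retsat introns were set beside retained introns of other genes, and their place by size depended on which introns were compared. Variations with 1 splice junction and 1 intron, called binary here, gave 42 introns, of which 34 lay outside windows of 100 kb with 8 or more variations. Of the 34, 32 had a higher retained share in AAV-Cre, with a median change of 0.307 over all 34 and median shares of 0.051 (AAV-GFP) and 0.362 (AAV-Cre). Intron 9 of Retsat ranked 3 and intron 7 ranked 4 by size in the authors' deposited table, after introns of Ermard (0.908) and Cox20 (0.655). With the dense windows included they ranked 5 and 6 of 42. Over introns of every kind of variation they ranked 6 and 8 of 120 outside the windows and 21 and 23 of 186 with them. These ranks describe values that also chose the gene and carry no test.

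The Retsat introns also differed from many of the others in their surroundings. An exon of another gene, on either strand, overlaps 12 of the 34, and 9 overlap no annotated exon at all. Whether reads in the 12 could belong to either gene depends on the strand. The libraries were stranded, but the sources do not say whether reads were assigned by strand. Both Retsat introns are among the 9, where they rank 2 and 3 by size after Ermard. Retsat, Cox20 and Acadvl were the 3 genes with more than 1 such intron, and the 4 introns of Cox20 and Acadvl overlap exons of Hnrnpu and Dvl2. A retained share under 0.1 in AAV-GFP together with at least 0.6 in AAV-Cre was found for 3 of the 34 introns, those of Retsat and that of Ermard. The cut of 0.6 was not planned and lies just under the AAV-Cre share of Retsat intron 7 (0.620). The 145-nt intron of Cox20, with 0.003 in AAV-GFP and 0.592 in AAV-Cre, fell just short of it. By length, the Retsat introns ranked 4 and 17 from the longest, in a range of 71 to 388 nt with a median of 133.5 nt.

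Among the 34 introns, those most like intron 7 in both group shares, by the summed absolute difference of PSI over the 2 groups, were a 145-nt intron of Cox20, a cytochrome c oxidase assembly factor (0.003 and 0.592, a distance of 0.028), an 84-nt intron of Acadvl, which encodes a mitochondrial acyl-CoA dehydrogenase (0.014 and 0.477, 0.154), and a 231-nt intron of Gtpbp6 (0.119 and 0.557, 0.179). For intron 9 they were the same introns of Cox20 (0.175) and Gtpbp6 (0.176), followed by a 167-nt intron of H2-Q5, a class I histocompatibility gene (0.249 and 0.610, 0.253). Intron 7 thus had a near match in Cox20, while the nearest match of intron 9 outside Retsat lay farther away. Introns of dense windows and of complex variations were not searched.

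**Figure D3:**
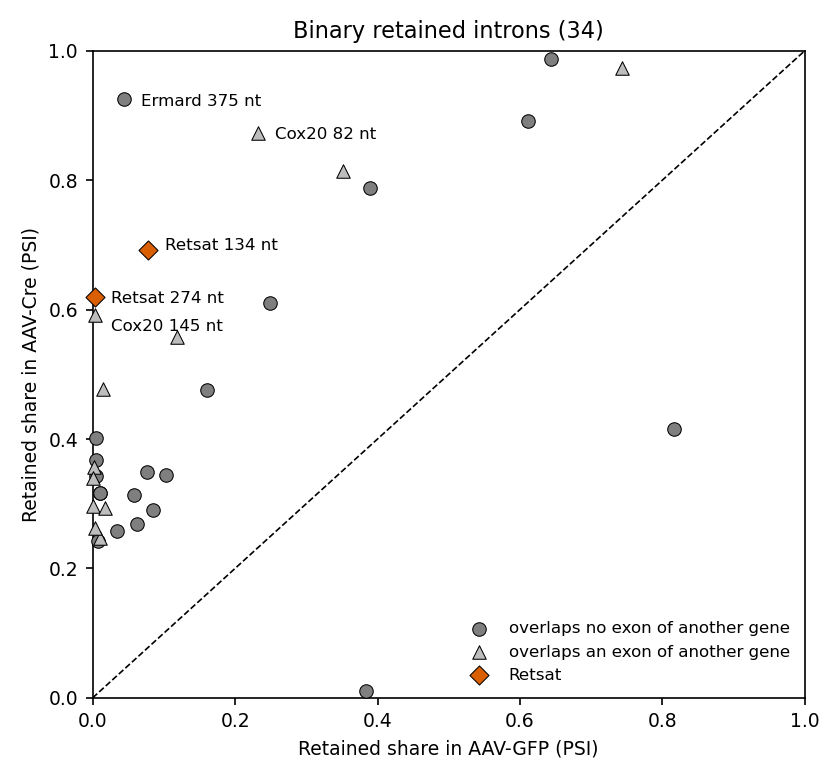
Retained share in AAV-GFP (x axis, PSI) against AAV-Cre (y axis, PSI) for the 34 binary introns outside dense windows; each point is 1 intron, triangles overlap an exon of another gene, diamonds are Retsat, and the dashed line marks equal shares. The Retsat introns lie at the left edge, at 0.620 and 0.692 on the y axis, with Ermard above them.

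At Rbp4, the upstream first exon had the larger share in AAV-Cre than in AAV-GFP, and both junctions of the downstream first exon had the smaller. The junction from the upstream first exon (38124647 to 38124955) went from a PSI of 0.201 with AAV-GFP to 0.452 with AAV-Cre, a change of 0.235 in the authors' deposited table. The junction from the downstream first exon to the same site (38124647 to 38124758) had 0.730 and 0.531, with a deposited change of -0.122. The junction from the downstream first exon to the inner site (38124642 to 38124758) had 0.069 and 0.017, with a deposited change of -0.0208. The downstream first exon, the one of the 201-codon form, kept the larger summed share in both groups.

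Summed over its junctions, the downstream first exon held 0.799 of the PSI in AAV-GFP and 0.548 in AAV-Cre. The upstream first exon was thus used at 0.252 times the level of the downstream one in AAV-GFP and at 0.825 times in AAV-Cre, a ratio that was 3.28-fold higher in AAV-Cre. Within the downstream first exon, the inner site took 8.64% of the PSI in AAV-GFP and 3.10% in AAV-Cre. These are shares, so a higher share of 1 first exon does not show that its transcripts became more abundant.

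The deposited changes of Rbp4 were smaller than the plain differences of the group PSI values. The differences were 0.251, -0.199 and -0.052 for the 3 junctions, in the order given above, and the second fell just short of the size of 0.2 used here for a large change. By the deposited changes, the Rbp4 junctions nearest to that size were 0.235 inside it and -0.122 outside it. For Retsat the plain differences were 0.617 at intron 7 and 0.614 at intron 9, within 0.0154 of the deposited changes.

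By the size of 0.2, all 4 Retsat entries and 1 of 3 Rbp4 entries were past it, against 22.3% of all 6866 junctions and introns in the table. The Retsat entries are the junction and the intron of each variation, with changes equal in size and opposite in sign, so they are not separate values. Of all 862 variations, 95.2% held an entry past that size. Nothing is read from these counts, because the same values chose the genes.

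The sequences ahead of the 2 Rbp4 start sites are shown because the shares of the first exons differ between groups. They are the 250 bases before each start site in RefSeq (GRCm38.p6), 5′ to 3′ on the minus strand, at chr19:38125322-38125571 for the upstream and chr19:38124812-38125061 for the downstream first exon. RefSeq puts the start sites at 38125321 and 38124811, 510 bases apart, the same positions at which the first exons of the deposited table begin. Capitals mark the TATA box sequence TATAAA, the CCAAT box sequence and the GC box sequence GGGCGG, on either strand.
Rbp4 upstream promoter: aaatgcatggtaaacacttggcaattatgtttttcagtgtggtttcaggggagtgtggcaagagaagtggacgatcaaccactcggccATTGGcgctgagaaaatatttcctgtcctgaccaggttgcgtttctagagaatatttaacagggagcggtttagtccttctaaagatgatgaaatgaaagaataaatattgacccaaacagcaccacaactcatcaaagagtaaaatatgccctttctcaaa
Rbp4 downstream promoter: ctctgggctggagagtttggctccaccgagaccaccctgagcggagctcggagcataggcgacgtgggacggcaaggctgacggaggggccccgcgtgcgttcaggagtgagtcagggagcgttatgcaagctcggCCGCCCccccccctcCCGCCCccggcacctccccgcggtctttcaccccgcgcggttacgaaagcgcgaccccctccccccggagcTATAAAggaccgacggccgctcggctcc

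The 2 stretches differ in composition. The upstream one has a GC content of 40.8%, below all but 13.3% of 32851 promoters of the same length, and holds 5 CG dinucleotides and 1 CCAAT match, on the opposite strand. The downstream one has a GC content of 70.8%, above 91.7% of them, and holds 28 CG dinucleotides, 2 GGGCGG matches, both on the opposite strand, and 1 TATAAA that begins 28 bases before the start site. Of these promoters, 44.4% held fewer CG dinucleotides than the upstream stretch and 92.4% held fewer than the downstream one. The upstream stretch held 0 TATAAA and 0 GGGCGG matches and the downstream one 0 CCAAT matches. Over all these promoters, 12.4% held TATAAA, 33.8% CCAAT and 32.7% GGGCGG. A match is a match of letters and was not tied to any factor, and the start of the downstream stretch also encodes part of the upstream first exon.

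The same pair of Rbp4 junctions was listed in the authors' deposited junction usage table as an alternative 5′ splice site event, with a p-value of 0.0421 and a q-value of 0.607. Its change in that authors' deposited table was not finite, so no size or direction can be taken from it. A rule of a q-value of 0.05 or less with a change of at least 0.1 was met by 11.4% of all 498 events. The Rbp4 event failed it by its q-value, and without a finite change it could not have met it in any case. None of the 498 events used here carried the name Retsat. That table held 19 retained introns, and 1 of the 34 binary introns above, that of Ilk, was among them by coordinates.

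Variations of the Rbp4 kind, in which every junction left an exon annotated only as a first exon, numbered 15 in 15 genes. Rbp4 ranked 14 of 15 by its most changed junction, at 0.235 in a range of 0.208 to 0.619 with a median of 0.304 in the authors' deposited table. The junction with the largest increase in AAV-Cre left the most upstream of the joined first exons in Rbp4 and in Mlkl, a mediator of necroptosis, and a more downstream one in the other 13 genes. With 1 value per group, this count is a description of the 15 variations and was not tested.

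**Figure D4:**
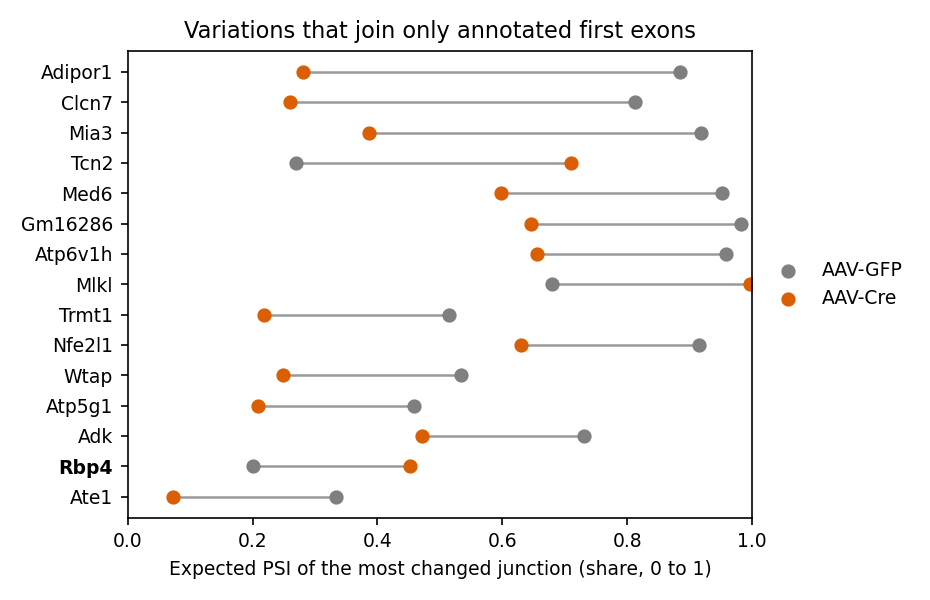
Deposited group PSI (x axis, share from 0 to 1) of the most changed junction in each of the 15 variations that join only annotated first exons, ordered by size of the deposited change; grey points are AAV-GFP and orange points AAV-Cre, 1 value per group. Rbp4 (bold) goes from 0.201 to 0.452 and stands second from the bottom.

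A list of 78 genes covered retinoid metabolism and transport, with nuclear receptors and general lipid genes such as Lpl and Pparg. Of these, 76 were annotated in GENCODE vM21. Retsat and Rbp4 were the 2 on the list with a local splicing variation, both past the size of 0.2. Rbp4 was also the 1 gene of the list with a junction usage event. The other 76, which include the names not annotated in GENCODE vM21, had none in either table as used here. Among them were Ttr, the plasma partner of RBP4, Lrat, which esterifies retinol, Stra6l, a receptor for RBP4, and the nuclear receptors Rara and Rxra. All 354 genes with a local variation also had one past 0.2. How many retinoid genes had enough reads to be measured is unknown, so their count cannot be read against those measured.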

How the data were processed

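Stranded mRNA libraries of 4 AAV-Cre and 4 AAV-GFP hepatocyte cultures gave paired reads, per the labels' protocols. FastQC, STAR and mm10 are named in the submitters' processing notes, with no versions. The first table deposited by the authors has the layout of VOILA, the viewer of MAJIQ, per the file headers, and holds expected PSI as a share per group, its expected change and a probability. The second was made by the authors with JUM at p below 0.05, per the file headers, with p-values, q-values and changes. The sources used here give no versions or settings. Nothing in the labels says that libraries came from separate animals.

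The deposited change ran as AAV-GFP minus AAV-Cre and was turned. After turning, all 1531 changes of at least 0.2 had the sign of the PSI difference. The probability column, headed for a change of at least 0.2 in size, was not used. Its values did not follow the size of the changes, as given under other observations. Retained introns of the junction usage table were matched after adding 1 to their positions, taken to count from 0. The Rbp4 event has the same common site, 38124647, as the local splicing variation. Its other sites, 38124756 and 38124953, were read as the junction ends 38124758 and 38124955. Gene models and exon sequences came from GENCODE vM21, and promoter sequences from RefSeq. The name match found 2 promoters for Rbp4.

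The members and lists were chosen with earlier results of these data known. Named genes were Retsat, Rbp4, listed genes of the retinoid list, the 3 genes with the introns most like each Retsat intron, and Srsf3. Genes with large introns or with first exon variations (Ermard, Cox20, Acadvl, Ilk, Mlkl) and overlapping genes were picked for naming with their values in view. On simulated data, class was recovered for 100% of 200 variations, and direction and rank for 100% of the 100 introns among them. The simulated rows had no noise and used the layout and sign that the reading assumes. They check the reading step only, not the deposited estimates or their sign. Alternatives changed the size, the source of the change and the introns compared. Python 3.11.15 and matplotlib 3.10.9 were used.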

Additional observations from a re-analysis of the deposited data

How the results depend on the processing

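No paired analysis was possible because the tables hold 1 value per group, and leaving out a library was not possible for the same reason. The 7 entries of Retsat and Rbp4 kept their direction when the plain PSI difference replaced the deposited change, and the count past 0.2 stayed at 5. It was 6 at a size of 0.1 and 4 at 0.3. The Rbp4 junction from the downstream first exon moved by more than 0.05, from -0.122 to -0.199. At a size of 0.3, 1 retinoid gene, Retsat, was left in place of 2. Among all 42 binary introns, with dense windows included, intron 9 of Retsat ranked 5 and intron 7 ranked 6, and outside the windows 3 and 4. With complex variations added, they ranked 21 and 23 of 186 introns. Outside the windows they then ranked 6 and 8 of 120, an alternative chosen after seeing the data. The 1 Rbp4 event of the junction usage table gave 0 calls under both thresholds, which its change, not being finite, fixes whatever the p-value. Its q-value of 0.607 in the authors' deposited table also missed the threshold of 0.05. Depth is unknown, so precision cannot be stated for any value.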

Other observations

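The probability column of the local splicing table gave different values for the 2 entries of 1 variation. For intron 7 of Retsat it gave 1 for the spliced junction and 0.398 for the intron, and for intron 9 it gave 1 and 0.352, although the deposited changes of the entries were equal in size. For the 3 Rbp4 junctions it gave 1 each, the one with a deposited change of -0.0208 included.

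The 3 deposited changes of the Rbp4 variation summed to 0.0925, whereas the 3 differences of the group PSI values summed to 0.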
